A study of Mus musculus with 6 samples.

Results

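The Siglecs are cell-surface receptors that read sialic acid, the sugar that caps most glycans of vertebrate cells. Most of them carry immunoreceptor tyrosine-based inhibitory motifs (ITIMs) in the cytoplasmic tail, which, once phosphorylated by Src family kinases, recruit the tyrosine phosphatases encoded by Ptpn6 and Ptpn11. SIRPa, the CD47 receptor missing from the knockout cells here, signals through the same pair of phosphatases. Other Siglecs lack such motifs and either serve adhesion, as Siglec1 does, or couple to the activating adaptor Tyrobp, as Siglech does.

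The family was taken as 7 mouse genes, matched by gene name in the deposited table of 54232 genes: Siglec1, Cd33, Siglece, Siglecf, Siglecg, Siglech and Cd22. All 7 were found, and 6 of them passed the filter on low values (10 normalized counts or more in 3 or more libraries), as did 13527 genes in all. Siglecg did not pass. The libraries were poly(A) RNA of bone marrow derived macrophages, cells grown out of mouse marrow for 7 days with 30% L929 cell-conditioned medium as the source of colony-stimulating factor-1. The mice were C57BL/6 at 8 weeks of age. There were 3 libraries labelled SIRPa KO and 3 labelled WT, all untreated, and no other treatment or allele is labelled in either group. Whether replicates are different mice or different cultures is not labelled, and p-values here reflect variation from library to library that could be technical in origin. The sources used here give neither the part of Sirpa that was deleted nor whether the deletion is limited to some cell types.

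Between 28653015 and 67446846 reads were assigned to genes in each library, with WT replicate 3 the deepest. Sirpa, the targeted gene, had normalized counts of 2102, 2112 and 2010 in KO replicates 1 to 3 against 110498, 114095 and 94737 in WT replicates 1 to 3, a log2 fold change of -5.68 (SE 0.11). The libraries therefore matched their labels. All 10 macrophage markers examined passed the filter, and 0 of them differed between groups at an adjusted p under 0.05 (limma, as in all tests here). Only 1 of 13527 genes, Sirpa itself, was called at that threshold, a background of 0.00739%. Cd14 was the 1 of 10 macrophage markers whose groups did not overlap, KO being under WT (log2 fold change -0.32, SE 0.12). Of all tested genes, 2.71% were separate in that direction.

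The 7 genes lie at several loci of GRCm38. Siglecf, Siglecg, Cd33 and Siglece form a cluster of 309 kb on chromosome 7, from 43351341 to 43660161. Cd22 lies on the same chromosome from 30865402 to 30880342, and Siglech from 55768178 to 55778925. Siglec1 is on chromosome 2 from 131069220 to 131086765, which is 1.44 Mb from the end of the targeted gene Sirpa. For Siglec1 an effect of the missing receptor and one of sequence linked to the targeted locus cannot be told apart.

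Promoter windows from RefSeq (GRCm38.p6, 250 bases before to 50 after a start site) were given for 6 of the 7 genes. Siglec1 had no entry. Where a gene had several windows, as Siglecg did, only the first entered the pairs. Among the 15 pairs of these 6 genes, Cd33 and Siglecf shared the longest identical run, 16 bases, where the other pairs shared 7 to 10. A local alignment of these windows had 62 identical positions among 80 aligned columns. Both windows are shown because they held the longest shared run. Cd33 and Siglecf, genes of the same cluster, stood at quite different levels in the macrophages, as described further on. The Cd33 window is chr7:43533122-43533421 on the minus strand and the Siglecf window is chr7:43351091-43351390 on the plus strand, both read 5′ to 3′, with the shared run in capitals.
Cd33: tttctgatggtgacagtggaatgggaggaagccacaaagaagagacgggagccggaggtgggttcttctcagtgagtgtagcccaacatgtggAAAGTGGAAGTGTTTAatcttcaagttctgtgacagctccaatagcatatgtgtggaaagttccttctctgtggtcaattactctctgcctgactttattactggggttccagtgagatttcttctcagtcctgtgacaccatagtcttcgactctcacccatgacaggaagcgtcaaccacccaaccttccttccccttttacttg
Siglecf: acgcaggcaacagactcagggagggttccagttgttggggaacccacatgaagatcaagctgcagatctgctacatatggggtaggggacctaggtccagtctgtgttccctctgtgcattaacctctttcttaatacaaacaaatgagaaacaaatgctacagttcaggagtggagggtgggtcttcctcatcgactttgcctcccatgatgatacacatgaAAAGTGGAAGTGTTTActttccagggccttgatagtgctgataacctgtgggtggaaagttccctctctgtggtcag

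The Cd33 start site of this window, 43533171, lies inside the annotated gene, which spans 43524216 to 43544428 on the minus strand. The shared run began at position -157 from this Cd33 start site and at -27 from that of Siglecf. It holds GGAAGT, the purine-rich core bound by ETS factors such as PU.1, at -152 in Cd33 and at -22 in Siglecf. On either strand, GGAAGT was also in the Siglech window and in 23.8% of all 32817 promoter windows of this length. The spaced palindrome TTCNNNGAA, bound by STAT factors, was in the Siglech window at -123 and in 8.29% of all windows. The interferon-related repeat GAAANNGAA, bound by IRF factors, was in none of the 6 genes' windows and in 8.55% of all windows. Matches of different motifs were allowed to overlap. A match says only that these letters are present.

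Per length of exon, Siglec1 was by far the most abundant Siglec transcript and Siglecg was almost absent. Levels between Siglec genes are compared here only as reads per kb of exon per 1000000 assigned reads (RPKM), computed from the recovered reads. Sums of marker lists below are of normalized counts, which are not scaled by length. Siglec1, sialoadhesin or CD169, a long adhesion receptor of macrophages that prefers sialic acid on other cells, ranged from 30.5 to 61.1 RPKM over the 6 libraries. Cd33 followed at 10.8 to 14.2 RPKM, with no library overlapping Siglec1 and a ratio of means of 3.60. Siglece stood at 2.37 to 2.90 RPKM, below Cd33 in all 6 libraries. Cd22 stood at 2.03 to 3.08 RPKM, and its libraries overlapped those of Siglece, which was higher in 4 of 6. With the longest transcript as length, Cd22 had the higher mean of the pair, 3.10 against 2.60 RPKM. Siglecf ranged from 0.755 to 1.58 RPKM, under every Cd22 library. Siglech, at 0.539 to 0.893 RPKM, overlapped Siglecf and was lower in 5 of 6 libraries. Siglecg did not exceed 0.0247 RPKM in any library. Of the family's summed level per length, Siglec1 made up 62.8% to 76.3% and Cd33 13.6% to 24.3%, and the other 5 genes were each below Cd33 in every library.

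**Figure D1:**
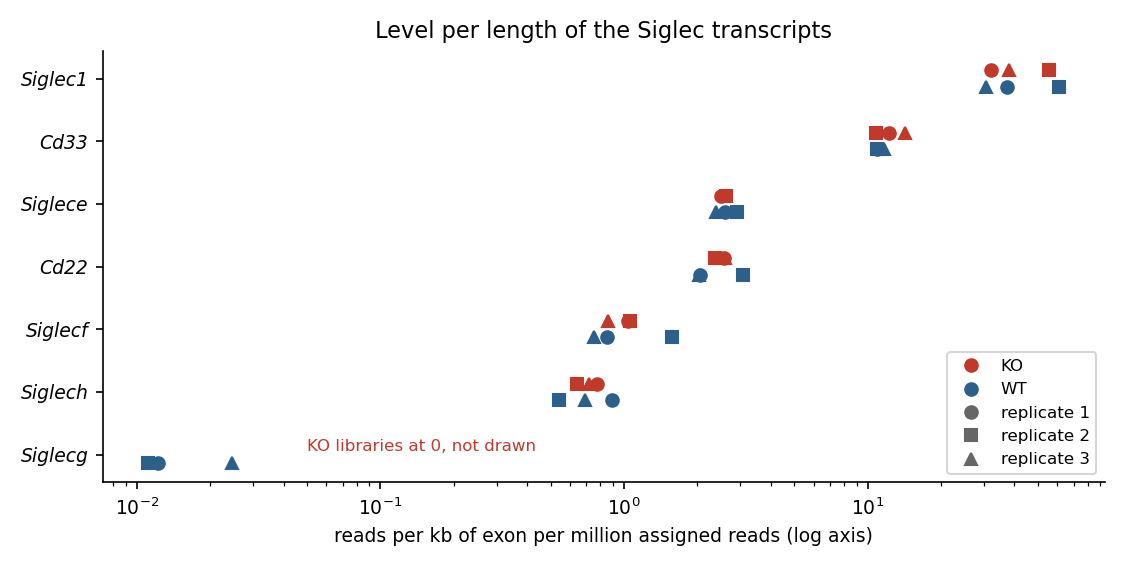
Level of each Siglec gene in reads per kb of exon per 1000000 assigned reads, on a log axis, with 1 point per library (red KO, blue WT, shape by replicate number). Siglec1 spans 30.5 to 61.1 and Cd33 10.8 to 14.2, Siglece overlaps Cd22 and Siglecf overlaps Siglech, and the KO libraries of Siglecg are at 0 and are not drawn.

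No Siglec gene passed the test for a difference between KO and WT macrophages, and the fold changes were small. Of the 6 tested members, 0 rose and 0 fell at an adjusted p under 0.05, and all 6 had an adjusted p of 0.9998 by limma. None of the 6 had an unadjusted p under 0.05, where 1.52% of all tested genes did, and in none were the 3 KO libraries separate from the 3 WT libraries, where 4.66% of all tested genes were. On the log2 scale 3 members had a positive and 3 a negative fold change, and their median log2 fold change was -0.02, beside -0.01 over all 13527 genes. The widest fitted ratio between groups among them was 1.08, for Cd33, whose log2 fold change ran from 0.018 without KO replicate 3 to 0.21 without KO replicate 2. All 6 intervals of the fold change (95%, here and below) lay within 2-fold in either direction, which held for 87.6% of all tested genes, and those of Cd33, Siglece, Cd22 and Siglech lay within 1.5-fold, which held for 69.1%. All log2 fold changes are KO over WT on the log2(normalized count + 1) scale.

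**Figure D2:**
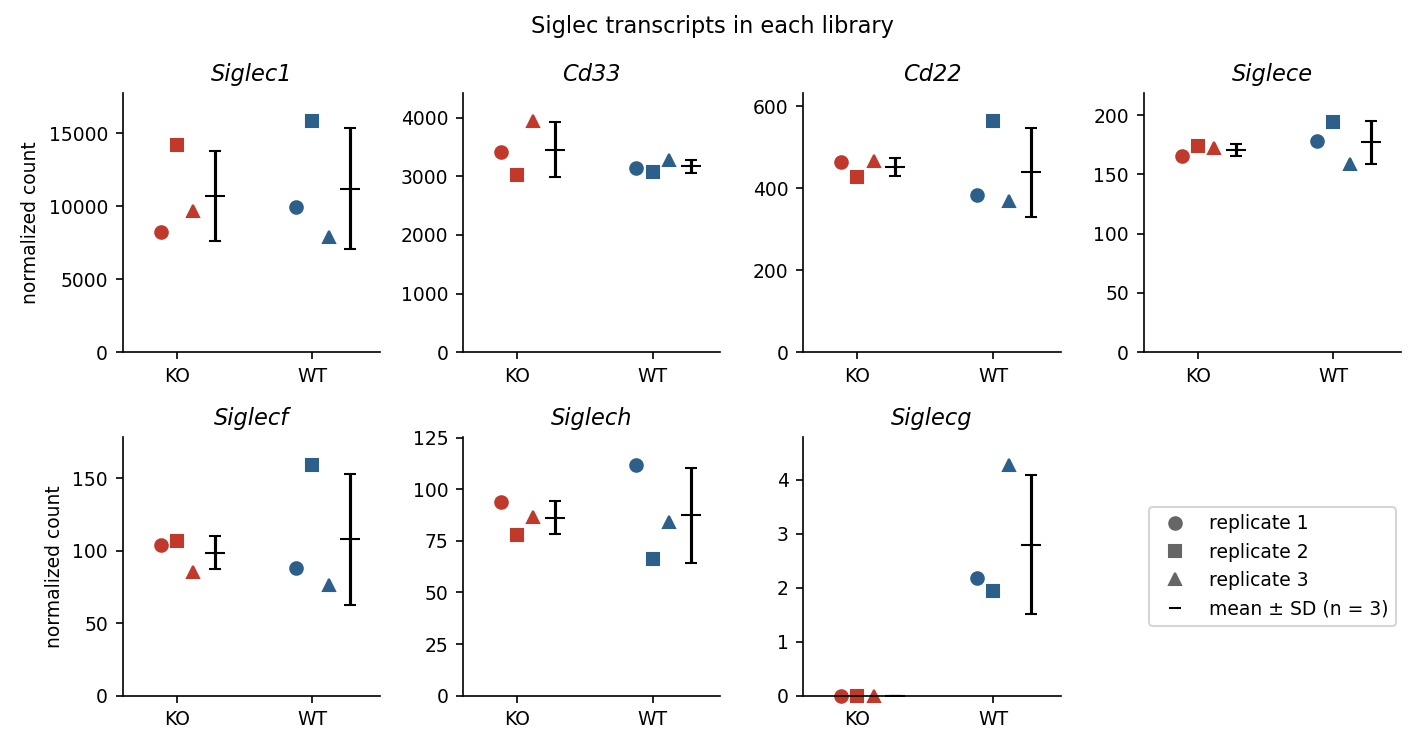
Normalized counts of the 7 Siglec genes by library (red KO, blue WT, shape by replicate number), with the mean and SD of 3 libraries beside each group and each axis starting at 0. KO and WT points overlap for 6 genes, and Siglecg, near the detection limit, is at 0 in KO and at 1.94 to 4.28 in WT.

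Siglec1 was the most abundant member and among the most variable transcripts of these cultures. Its normalized count was 8248, 14198 and 9660 in KO replicates 1 to 3 and 9917, 15817 and 7871 in WT replicates 1 to 3. Replicate 2 was the highest library of either group, and the groups overlapped over nearly their whole range. KO libraries averaged 10702 ± 3109 and WT libraries 11202 ± 4126 (SD, n = 3 each). The log2 fold change was -0.04 (SE 0.25), with an interval from 1.51-fold lower to 1.43-fold higher in KO. Over the 6 libraries its coefficient of variation was 29.9%, and 97.4% of the 10339 tested genes with a mean of at least 100 varied less. The sign of the Siglec1 difference rested on single libraries: the log2 fold change was 0.24 without WT replicate 2 and -0.27 without WT replicate 3, with an adjusted p of at least 0.861 (limma) when any library was left out.

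Siglec1 is a known target of type I interferon, so the interferon-stimulated genes were set beside it. All 25 genes of that list had a negative log2 fold change, with a median of -0.37, and 0 passed the test. The median over all tested genes was -0.01. An unadjusted p under 0.05 (limma) was found for 8 of the 25, where 1.52% of all tested genes had one. These 25 values share the same 6 libraries. Ifit3, an interferon-induced antiviral protein, was 1123, 2002 and 2141 in KO and 2301, 2552 and 3441 in WT. Its log2 fold change was -0.69, and -0.40 without KO replicate 1. Rsad2 (viperin) and Cmpk2 had log2 fold changes of -0.60 and -0.54, and -0.35 each without KO replicate 1. Siglec1 and the list were alike in some libraries and opposite in others. In KO replicate 1 the list's median deviation from the mean of 6 libraries was -0.66 on the log2 scale and that of Siglec1 was -0.36, both low. In WT replicate 2 both were high, at 0.22 for the list and 0.58 for Siglec1. In WT replicate 3 the list was at its highest, 0.31, while Siglec1 was at its lowest, -0.43. In KO replicate 2 the list stood at 0.03 and Siglec1 at 0.43. The part of interferon-stimulated expression in the Siglec1 values was not tested.

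**Figure D3:**
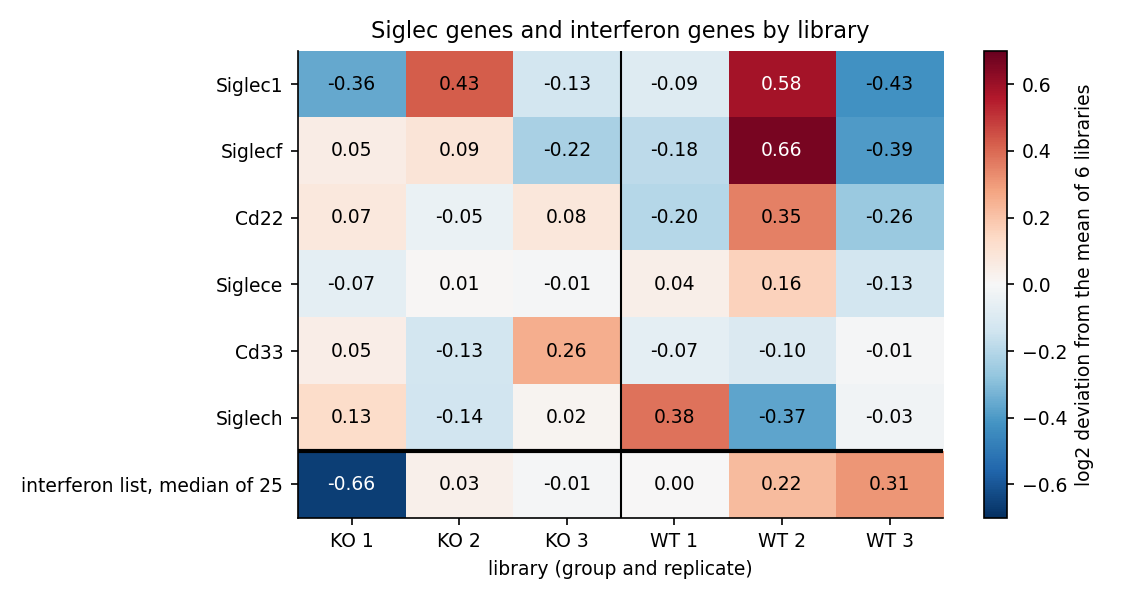
Deviation of each tested Siglec gene in each library from its own mean over the 6 libraries, on the log2(normalized count + 1) scale, with the median of 25 interferon-stimulated genes in the bottom row. Siglec1, Siglecf, Cd22 and Siglece are highest in WT replicate 2 and lowest in WT replicate 3, while the interferon median is lowest in KO replicate 1 at -0.66 and highest in WT replicate 3 at 0.31.

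The CD33-related Siglecs are the fast-evolving branch of the family and are mostly inhibitory. Cd33 encodes a myeloid Siglec whose mouse form, unlike the human one, lacks the canonical membrane-proximal ITIM. It had normalized counts of 3409, 3016 and 3939 in KO and 3144, 3074 and 3284 in WT. The KO libraries reached further in both directions than the WT libraries, which lay inside their range. The means were 3455 ± 463 and 3167 ± 107 (SD, n = 3 each), and the log2 fold change was 0.12 (SE 0.12), with an interval from 1.10-fold lower to 1.30-fold higher in KO.

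Siglece, an ITIM-bearing receptor that restrains neutrophils, monocytes and macrophages, was the steadiest member. Its normalized count was 165, 174 and 172 in KO and 178, 194 and 158 in WT. The WT libraries bracketed the KO libraries. The log2 fold change was -0.05 (SE 0.16), and the interval ran from 1.32-fold lower to 1.23-fold higher. Its coefficient of variation over the 6 libraries was 7.05%, against a median of 11.0% over genes with a mean of at least 100.

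Siglecf, an ITIM-bearing Siglec known from eosinophils and alveolar macrophages, had normalized counts of 104, 107 and 85.6 in KO and 88.0, 159 and 76.0 in WT. WT replicate 2 stood alone at the top, and the other 5 libraries lay between 76.0 and 107. The log2 fold change was -0.06 (SE 0.27), with an interval from 1.57-fold lower to 1.45-fold higher, the widest of the family. Without WT replicate 2 the log2 fold change was 0.26 and without WT replicate 3 it was -0.27. Of the 8 eosinophil markers, Ear6 was at 0 in all libraries and Epx, eosinophil peroxidase, averaged 0.723 normalized counts over the 6 libraries. Prg2, at a mean of 11.5, and Ccr3 passed the filter. The summed eosinophil markers were 180 to 239 in KO and 157 to 237 in WT, most of it Ccr3 at a mean of 184. The alveolar macrophage markers Car4, Fabp1 and Krt79 were at 0 in all libraries, while Pparg, Chil3 and Marco passed the filter with means of 1333, 89.9 and 12.9. The summed list of 8, most of it Pparg, was 1267 to 1382 in KO and 1513 to 1575 in WT, and its part in the Siglecf values was not tested. Of 9 neutrophil markers 6 passed the filter, with sums of 424 to 596 in KO and 363 to 737 in WT and Ly6g at 0. Of 7 T and NK cell markers 1 passed, with sums of 10.8 to 30.0 in KO and 11.8 to 27.2 in WT.

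Siglecg, a B cell and dendritic cell Siglec that binds CD24, was at the detection limit. There were 0 reads in each KO library, and 2, 2 and 8 reads in WT replicates 1, 2 and 3, of which replicate 3 was the deepest. The WT reads summed to 12, or 0.0864 per 1000000 assigned reads. The count of 0 over the KO group allows up to 0.0334 per 1000000 (3 reads over the group, for counting error only). In the authors' deposited table Siglecg had an unadjusted p of 0.079 and an adjusted p-value of 0.9999 (DESeq2). Without the filter limma gave an unadjusted p of 0.0015 and an adjusted p of 0.943. In that unfiltered fit 651 of 24604 genes had an unadjusted p under 0.05. Its level rested on too few reads for a comparison of the groups.

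Siglech encodes a Siglec of plasmacytoid dendritic cells without an ITIM that signals through Tyrobp. It had normalized counts of 93.8, 77.9 and 86.8 in KO and 112, 66.0 and 84.0 in WT. The KO libraries lay inside the WT range. The log2 fold change was 0.01 (SE 0.23), with an interval from 1.41-fold lower to 1.43-fold higher, and its sign turned with quantile normalization. Among the 10 plasmacytoid dendritic cell markers 7 passed the filter, of which Lair1, Tcf4 and Runx2 are also used by macrophages. Spib averaged 31.1, Ccr9 43.4 and Cox6a2 14.2 normalized counts over the 6 libraries, and Klk1 0.392. The summed list was 16522 to 18440 in KO and 15939 to 17870 in WT, most of it Lair1 (mean 8509) and Tcf4 (7927). In bulk RNA, fewer cells of a type and less RNA per cell cannot be told apart.

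Cd22 encodes the inhibitory Siglec of B cells, which damps signals of the antigen receptor. It was present at 464, 427 and 466 normalized counts in KO and 384, 563 and 369 in WT. The KO libraries were close together, with the WT libraries on either side of them. The means were 453 ± 22.0 and 438 ± 108 (SD, n = 3 each), and the log2 fold change was 0.07 (SE 0.17), with an interval from 1.24-fold lower to 1.37-fold higher. With array weights, which put most weight on replicate 1 of each group and did not converge, Cd22 was called higher in KO (log2 fold change 0.24, adjusted p = 0.0398, limma). The B cell marker Cr2, a complement receptor, was at 0 in all 6 libraries. Ms4a1 and Pax5 averaged 1.71 and 0.534 normalized counts, and Cd79a 0.887. Cd79b, a signalling chain of the antigen receptor, averaged 53.3 and Blnk, an adaptor also used in macrophages, 3227. The KO libraries of Blnk all lay under the WT libraries, where 2.71% of all tested genes were separate in that direction. Under the filter, Ighd had 2, 1 and 3 reads in KO and 13, 7 and 13 in WT. Ebf1 had 1, 3 and 1 reads in KO and 1, 0 and 0 in WT. The 10 markers summed to 3090 to 3254 in KO and 3262 to 3601 in WT, most of it Blnk, and their part in the Cd22 values was not tested. An antisense gene, Gm29439, overlaps an exon of Cd22 and had 1 or 2 reads in each library. As no strand setting is given, the effect of this overlap on the Cd22 counts was not tested.

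**Figure D4:**
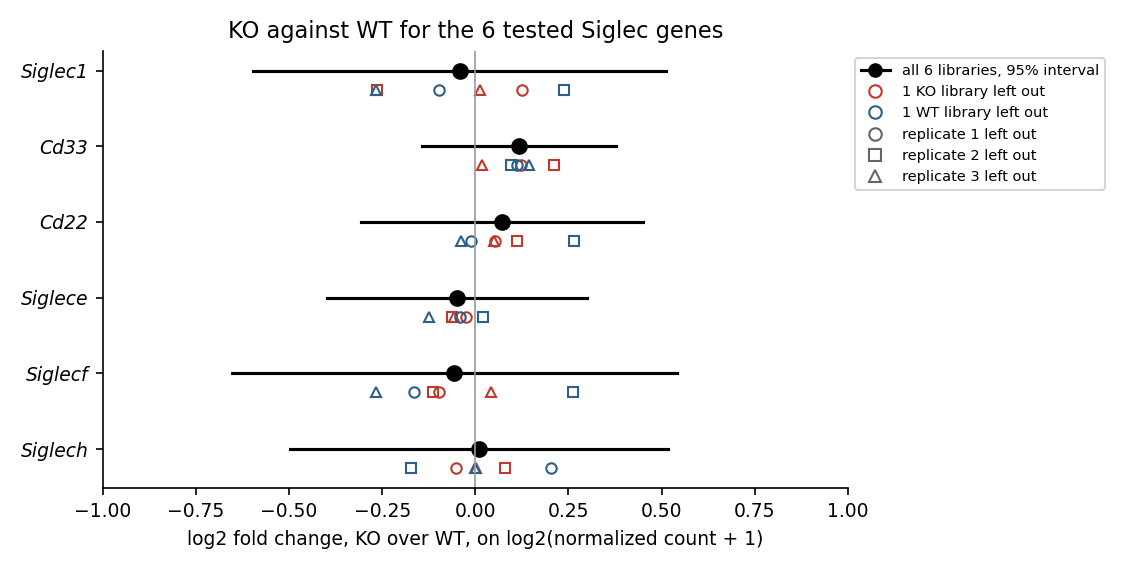
Log2 fold change of KO over WT for the 6 tested Siglec genes on the log2(normalized count + 1) scale, with the 95% interval (black) and, underneath, the value when each library is left out in turn (open symbols, red KO, blue WT, shape by replicate). All intervals cross 0, and the open symbols of Siglec1 and Siglecf run from about -0.27 to 0.24 and 0.26, depending on which library is left out.

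Siglec1, Siglece, Siglecf and Cd22 shared a pattern over the WT libraries. All 4 were highest in WT replicate 2 and lowest in WT replicate 3, as were 7.27% of all tested genes. These 4 were picked after their values were seen. In KO the same genes differed in order, with Siglec1, Siglece and Siglecf highest in replicate 2 but Cd22 lowest there. The genes most like each member were those with the highest Pearson correlation on the log2 scale over the 6 libraries, among 9919 candidates, so high values are in part a product of that choice. For Siglec1 they were Pde1b (r = 0.994), Klc2 (0.991) and Agrn (0.985). For Siglece they were Sema4d (0.993), Kdm6b (0.989) and Per1 (0.978). For Siglecf they were Mknk1 (0.994), Vav2 (0.994) and Per2 (0.990). Cd33 was most like Phf6 (0.996), Pias2 (0.993) and Fam111a (0.989), and Cd22 was most like Smcr8 (0.992), Xylt1 (0.991) and Avl9 (0.987). Per1 and Per2 encode repressors of the circadian clock. All these correlations share the same 6 libraries and are given as a description.

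Of the other mouse Siglecs, Mag was tested and did not pass, and Siglec15 was under the filter. Mag, the myelin-associated glycoprotein of glia, had normalized counts of 61.3, 83.6 and 50.6 in KO and 63.0, 80.6 and 91.5 in WT. The groups overlapped, and its log2 fold change was -0.28 (SE 0.25). Siglec15, a Tyrobp-coupled Siglec of osteoclasts, had 2, 1 and 1 reads in KO and 0 reads in each WT library.

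None of the signalling partners of the Siglecs passed the test. Of 13 partners, all 13 were tested, 0 rose and 0 fell, 7 had a positive and 6 a negative log2 fold change, and the median log2 fold change was 0.02. Ptpn6, the phosphatase recruited by ITIMs, was 18398, 18986 and 17901 in KO and 20510, 19453 and 19237 in WT. The KO libraries all lay under the WT libraries, at a log2 fold change of -0.10 (SE 0.10). Ptpn11, its relative, was 3488, 3208 and 3082 in KO and 2927, 3540 and 2909 in WT, with overlapping groups. Tyrobp, the adaptor of Siglech, was 23490, 27367 and 17298 in KO and 24784, 23952 and 30189 in WT, which overlapped too. Fgr, a Src family kinase, had a log2 fold change of -0.24 (SE 0.13), and Cbl, a ubiquitin ligase, 0.27 (SE 0.15). The Cbl value was 0.44 without WT replicate 2 and 0.11 without WT replicate 3, and that of Tyrobp went from -0.23 to -0.05 without KO replicate 3. Ptpn6, Fgr and Grb2 were the 3 of 13 whose groups did not overlap, all with KO under WT, where 2.71% of all tested genes were separate in that direction. Grb2 was named after its values were seen.

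The sialic acid that Siglecs bind is made and removed by enzymes expressed in the same cells, and none of these genes passed the test. Of 8 genes of synthesis and activation, 7 were tested, 0 rose and 0 fell, and the median log2 fold change was -0.01. Gne, the entry enzyme of sialic acid synthesis, was 628, 684 and 636 in KO and 636, 635 and 540 in WT. Cmas, which activates the sugar, had a log2 fold change of -0.11 (SE 0.12), and Renbp -0.08 (SE 0.10). Cmah, which hydroxylates the activated sugar and so sets which form Siglecs meet, had means of 575 in KO and 572 in WT.

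Of 20 sialyltransferases, which attach the sugar, 12 passed the filter and 5 were at 0 in all libraries. None rose or fell, and the median log2 fold change was -0.06. St8sia4, a polysialyltransferase, had mean normalized counts of 9021 in KO and 8303 in WT. St6gal1, which makes the linkage that CD22 prefers, had means of 4921 and 5084. St8sia6, close to the filter, was 12.5, 20.6 and 21.7 in KO and 30.4, 26.2 and 32.1 in WT. Its groups did not overlap, and the log2 fold change was -0.70 (SE 0.31), with an adjusted p of 0.9998. St6galnac6 and St3gal6, at log2 fold changes of -0.20 each, were the other members whose KO libraries all lay under the WT libraries, which makes 3 of 12, where 2.71% of all tested genes were separate in that direction. Without KO replicate 1 St8sia6 stood at -0.46, and without KO replicate 3 St6galnac6 stood at -0.08.

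A list of sialidases and sialic acid O-acetylation genes, which also included Ctsa and Slc17a5, held 8 genes. Of these, 6 were tested, 0 rose and 0 fell, and the median log2 fold change was 0.04. Neu1, the lysosomal sialidase, was 3521, 3961 and 3740 in KO and 4122, 3723 and 3987 in WT. Neu3, the sialidase of the plasma membrane, had a log2 fold change of 0.15 (SE 0.21), and Slc17a5, the lysosomal exporter of sialic acid, 0.07 (SE 0.11). Neu2 and Neu4 were at 0.

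Of 8 sialylated carriers that Siglecs can bind, 6 were tested, 0 rose and 0 fell, and the median log2 fold change was -0.07. Cd24a, the ligand of Siglecg, was 991, 879 and 929.3 in KO and 1207, 936 and 1737 in WT. Its groups overlapped only between KO replicate 1 and WT replicate 2, and the log2 fold change was -0.43 (SE 0.19). It was -0.19 without WT replicate 3. Selplg had a log2 fold change of -0.16 (SE 0.10), and was the 1 of 6 whose groups did not overlap, KO being under WT. Of all tested genes, 2.71% were separate in that direction. Spn, which encodes CD43, stood at -0.34 (SE 0.26), and at 0.02 without WT replicate 3.

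**Figure D5:**
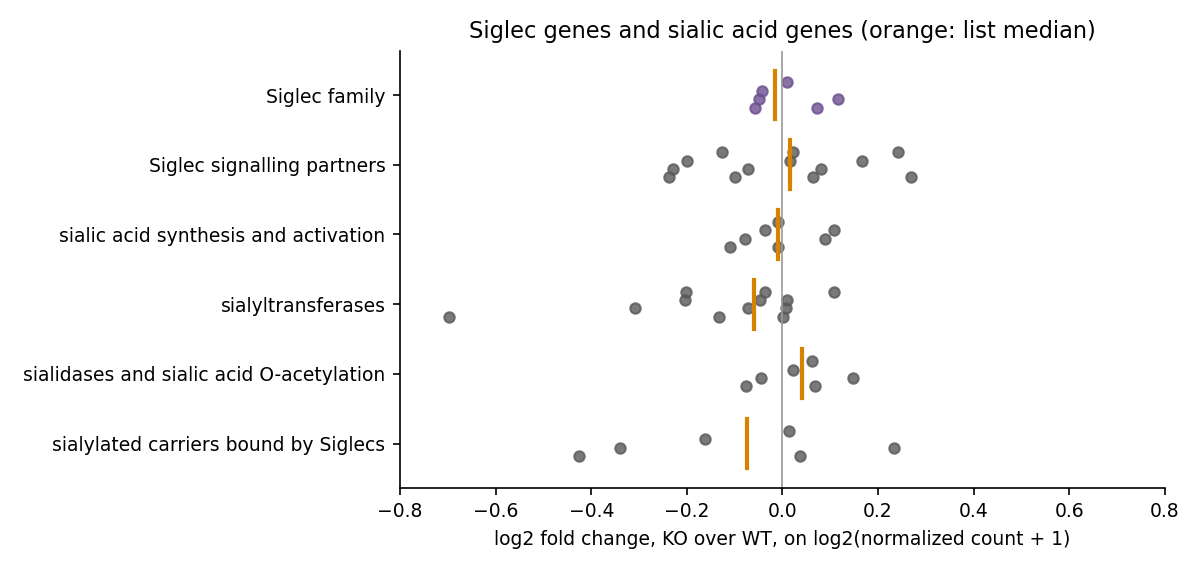
Log2 fold change of KO over WT, on the log2(normalized count + 1) scale, for every tested gene of the Siglec family (purple) and of 5 lists of signalling and sialic acid genes (grey), with the list median in orange. The list medians lie between -0.07 and 0.04, and the farthest point is St8sia6 at -0.70.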

How the data were processed

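The deposited table has 1 column of signal per library, in which the authors scaled each library's gene counts by a single size factor. Per the submitters' processing notes, reads were handled with STAR 2.5.1b, CASAVA 1.4, DESeq2 1.22.2 and featureCounts 1.6.0 against GRCm38. The design text names TopHat instead, so the aligner behind the values is uncertain. The sources used here give no strand setting. The deposited table also holds the authors' mean signal, log2 fold changes and their errors, a test statistic (a score without a fixed range), and p-values.

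Whole reads could be recovered from the scaled values, 100% of which came out whole to 0.001 reads. The main test was limma 3.58.1 (R 4.3.3), with an intensity trend and no block, on log2(normalized count + 1), which understates changes of low genes. Adjustment was Benjamini-Hochberg over 13527 genes, two-sided, threshold 0.05. Alternatives included edgeR 4.0.16 and DESeq2 1.42.0 on the recovered reads. RPKM used the union of GENCODE M21 exons. The scripts were tested on simulated counts.

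The members and gene lists were chosen with earlier results of these data known. Named genes were Sirpa, the members, the other mouse Siglecs, Tyrobp, Ptpn6, Ptpn11, for each pathway list up to 3 genes of lowest p, and the 3 genes most like each member with a mean of at least 100. Other genes were named after their values were seen. P-values were not adjusted over lists. The interferon repeat was searched first in a form 1 base longer, which also had no match in the members' windows, and the shorter form is reported.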

Additional observations from a re-analysis of the deposited data

How the results depend on the processing

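Across 17 alternatives, Sirpa was the only gene called in every fit but array weights, and no Siglec gene was called in any other fit. Outside array weights the smallest adjusted p of a member was 0.857 (limma). Array weights called 1685 genes higher and 1813 lower, among them 1 Siglec gene, Cd22, as higher (log2 fold change 0.24, adjusted p = 0.0398). The estimate of the weights stopped before convergence and gave 6.61 and 7.10 to KO replicate 1 and WT replicate 1 and at most 0.543 to the others, so most of the weight in that fit lay on 1 library per group. The sign of a member's small difference turned in 16 of 102 recomputed values. With array weights Siglecf stood at 0.20 and Siglech at -0.22. Siglech was -0.0068 with quantile normalization, -0.011 with edgeR and -0.015 with DESeq2. Leaving out each library in turn, Siglec1 ran from -0.27 to 0.24, Cd33 from 0.018 to 0.21, Siglecf from -0.27 to 0.26, Siglech from -0.17 to 0.20, Cd22 from -0.039 to 0.27, Siglece from -0.13 to 0.021 and Spn from -0.52 to 0.017. Why single libraries differ was not tested.

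With the replicate number as a replicate block, 0 genes were called higher and 1 lower, as without it. Same-numbered libraries deviated together with r = 0.01, 0.31 and 0.13 for replicates 1, 2 and 3, and KO replicate 3 was closer to WT replicate 1 (0.15). Pairing by number was therefore not shown, and it was not excluded. Depth limits Siglecg and Siglec15, with at most 8 reads in a library.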
